A study of Mus musculus with 3 samples.

Results

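The Ifit genes Ifit1, Ifit2, Ifit3 and Ifit3b are the 4 mouse genes described here, taken by symbol out of 55536 annotated genes. All 4 were measured in every library. They were read in RNA from the cytosolic fraction of bone-marrow-derived macrophages, which are macrophages grown in culture from marrow precursors. The cells came from C57BL/6J mice and received Lipid A, the part of bacterial lipopolysaccharide that Tlr4 senses, at 100 ng/ml for 20 min. RNA was depleted of ribosomal RNA, and 3 libraries of this 1 condition form the only group. The labels number them as biological replicates 1 to 3 and give the same donor identifier for all, so an SD may hold partly technical spread. Unstimulated cells and other times are not analysed here, so the values are levels and say nothing of induction.

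Ifit proteins are built of tetratricopeptide repeats and are made in large amounts when interferon reaches a cell. Type I interferon acts through the receptor chains Ifnar1 and Ifnar2 on a factor complex that includes Stat2 and Irf9 and binds interferon-stimulated response elements near gene starts. Irf3, activated downstream of Tlr4 through the adaptor Ticam1, can bind the same elements directly. Ifit1 binds RNA whose 5′ cap lacks a methyl mark and keeps it from being translated, and Ifit2 and Ifit3 act in complexes with Ifit proteins. Ifit3b is a close copy of Ifit3.

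The upstream sequences show what the genes share and where they differ. They come from RefSeq promoter windows on GRCm38.p6, all on chromosome 19 and written on the plus strand. Each ends before the annotated start of the gene. Capitals mark matches to the core of the interferon-stimulated response element, searched as GAAA, any 2 bases and GAAA, which reads TTTC, any 2 bases and TTTC on the other strand. Ifit3 is shown at chr19:34583359-34583528, Ifit3b at chr19:34607755-34607956, Ifit1 at chr19:34640744-34640870 and Ifit2 at chr19:34550524-34550693.
Ifit3: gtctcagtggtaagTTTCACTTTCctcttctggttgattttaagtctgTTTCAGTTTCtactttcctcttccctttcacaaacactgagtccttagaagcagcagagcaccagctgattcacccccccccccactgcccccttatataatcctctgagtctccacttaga
Ifit3b: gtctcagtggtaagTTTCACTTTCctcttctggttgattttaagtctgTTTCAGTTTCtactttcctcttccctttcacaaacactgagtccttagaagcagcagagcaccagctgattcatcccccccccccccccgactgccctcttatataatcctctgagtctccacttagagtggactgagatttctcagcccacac
Ifit1: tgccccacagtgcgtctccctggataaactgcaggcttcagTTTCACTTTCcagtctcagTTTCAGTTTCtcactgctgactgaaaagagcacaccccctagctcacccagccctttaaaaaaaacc
Ifit2: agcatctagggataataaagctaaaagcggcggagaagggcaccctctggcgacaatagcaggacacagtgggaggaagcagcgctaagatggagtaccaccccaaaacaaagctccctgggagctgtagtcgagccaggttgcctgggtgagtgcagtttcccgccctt

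Ifit1, Ifit3 and Ifit3b each held 2 matches, and in each gene the first read TTTCACTTTC and the second TTTCAGTTTC. Both matches lie on the minus strand, and none overlaps another. Their first bases are 34 bases apart in Ifit3 and in Ifit3b, and 19 bases apart in Ifit1. The matches begin 156 and 122 bases before the RefSeq start of Ifit3, 188 and 154 before that of Ifit3b, and 104 and 85 before that of Ifit1. Neither RefSeq window of Ifit2 held these letters. Sequence outside the windows and looser forms of the element were not searched, so this does not show that Ifit2 lacks one. Among the other Ifit genes of the cluster, Ifit1bl2, which was close to silent here, has the same 2 matches as Ifit1 in the stretch between them, and Ifit1bl1 held 1 match in each of its 2 windows. Searched on both strands, 3.44% of 32851 windows of 300 bases held at least 1 match, and 0.225% held 2 or more. Counted by gene, 3.99% of 27025 genes held a match in any window, and 0.266% held 2 or more in a window. Of the 36 other interferon-stimulated genes listed for comparison, 26 had a window and 15 of those held a match. A match is a run of letters and not a measured binding site.

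The Ifit3 segment aligned to that of Ifit3b at 168 of 170 positions, with the gaps left out. The coding sequences of Ifit3 and Ifit3b are both 1209 bases long and were identical at 1198 positions, or 99.1%. Every other pair among the 4 genes was far less alike, between 60.1% and 64.6%. Of the 31-base words in the Ifit3 transcript, 61.8% also occur in transcripts of other genes, and Ifit3b holds all of these. For Ifit3b the share was 55.5%, for Ifit1 10.7%, and for Ifit2 no word was shared. Longer words were shared less, 51.2% of Ifit3 and 45.0% of Ifit3b at 50 bases and 31.7% and 27.4% at 100 bases. Reads from shared stretches can be assigned to either gene only by estimate, so the separate values of Ifit3 and Ifit3b are less certain than their sum.

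All 6 mouse genes whose symbols begin with Ifit and a digit lie in a span of 99.3 kb on chromosome 19 (mm10, GENCODE M21). From left to right these are Ifit2 at chr19:34550694-34576419, Ifit3 at chr19:34583531-34588731, Ifit1bl1 at chr19:34592891-34601956, Ifit3b at chr19:34607970-34613401, Ifit1bl2 at chr19:34617049-34640743 and Ifit1 at chr19:34640871-34650009. The 4 described genes are on the plus strand, and the Ifit1-like genes Ifit1bl1 and Ifit1bl2 are on the minus strand. Ifit1 and Ifit1bl2 point away from each other with 127 bases between their annotated starts, and these are the bases printed above for Ifit1.

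The gene models of the 4 members share a layout. In Ifit1-201, Ifit2-201, Ifit3-201 and Ifit3b-201 the first coding exon holds 5 coding bases and the last exon holds all the others. The last exon carries 1405 coding bases in Ifit2, 1384 in Ifit1, and 1204 in each of Ifit3 and Ifit3b. Ifit2-201 has the longest transcript of these 4, with 3818 bases in 3 exons. Ifit1-201 has 2656, Ifit3b-201 2000 and Ifit3-201 1745 bases, each in 2 exons. Raw counts thus favour Ifit2, and the genes are compared per length below.

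The libraries held 27282444, 81509889 and 37131774 expected counts over genes in replicates 1 to 3, so replicate 2 was the most deeply read. A count of 0 allows up to 3 counts, which is 0.110, 0.0368 and 0.0808 CPM (counts scaled to 1000000 per library) in that order. Such limits and the counting errors below cover counting only. Macrophage markers were present, 8 of 8 at 1 TPM or more in all libraries, with a mean of 4579 TPM for Lyz2, 618 for Cd68 and 214 for Csf1r. No listed marker of T and NK cells, B cells, classical dendritic cells or fibroblasts reached 1 TPM. Of 5 markers of plasmacytoid dendritic cells, strong interferon producers, 2 reached 1 TPM in all libraries, Bst2 at a mean of 115 TPM and Tcf4 at 13.6. The other members of that list, Siglech, Ccr9 and Pacsin1, were below 1 TPM. Of 3 monocyte markers 2 reached it, Ccr2 at 3.26 and Ly6c2 at 2.17 TPM. Of 4 neutrophil markers 2 reached it, S100a9 at 13.1 and S100a8 at 8.65 TPM. Mpo averaged 0.173 TPM, and Ly6g was at 0 in replicates 1 and 2. In bulk RNA, fewer cells of a type and less RNA per cell cannot be told apart.

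All 4 genes stood at 1 TPM or more in every library, beside 16.8% of all 55536 genes. Ifit2 and Ifit3 were the abundant members, Ifit1 came next and Ifit3b was lowest. TPM divides reads by transcript length and scales each library to a fixed sum. Nuclear protein-coding genes took from 24.98% of that sum in replicate 1 to 19.6% in replicate 3, with replicate 2 between them. Each value is therefore also given rescaled, so that these genes sum to 1000000 in each library.

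Ifit2 measured 107, 60.4 and 43.9 TPM in replicates 1, 2 and 3, or 70.5 ± 32.9 (SD, n = 3). Rescaled, these were 430, 274 and 223. Replicate 1 was high and the other libraries lay closer together. Counts of 19466, 35856 and 12426 lay behind the values, with a counting error of at most 0.897%.

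Ifit3 measured 88.5, 61.8 and 41.2 TPM, or 63.8 ± 23.7 (SD, n = 3), and 354, 281 and 209 rescaled. Replicate 1 was again highest and replicate 3 lowest, with nearly even steps. Its expected counts were 6774, 15620 and 4952, with a counting error of at most 1.42%.

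Ifit1, the cap-sensing member, measured 22.7, 15.4 and 9.40 TPM, or 15.8 ± 6.66 (SD, n = 3), and 90.9, 69.8 and 47.8 rescaled. Ifit3b measured 14.3, 9.55 and 6.06 TPM, or 9.97 ± 4.14 (SD, n = 3), and 57.3, 43.4 and 30.8 rescaled. Both followed the same order of libraries. The counting error was at most 2.35% for Ifit1 and 3.43% for Ifit3b, far below the spread between libraries.

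The authors' second transcript table gave lower TPM for all 4, with means of 27.4 for Ifit2, 24.4 for Ifit3, 6.02 for Ifit1 and 3.80 for Ifit3b. Nuclear protein-coding genes took only 10.5%, 8.92% and 6.71% of its TPM in replicates 1, 2 and 3. Rescaled in the same way, its means were 301, 270, 65.9 and 41.8, beside 309, 282, 69.5 and 43.8 in the first table.

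**Figure D1:**
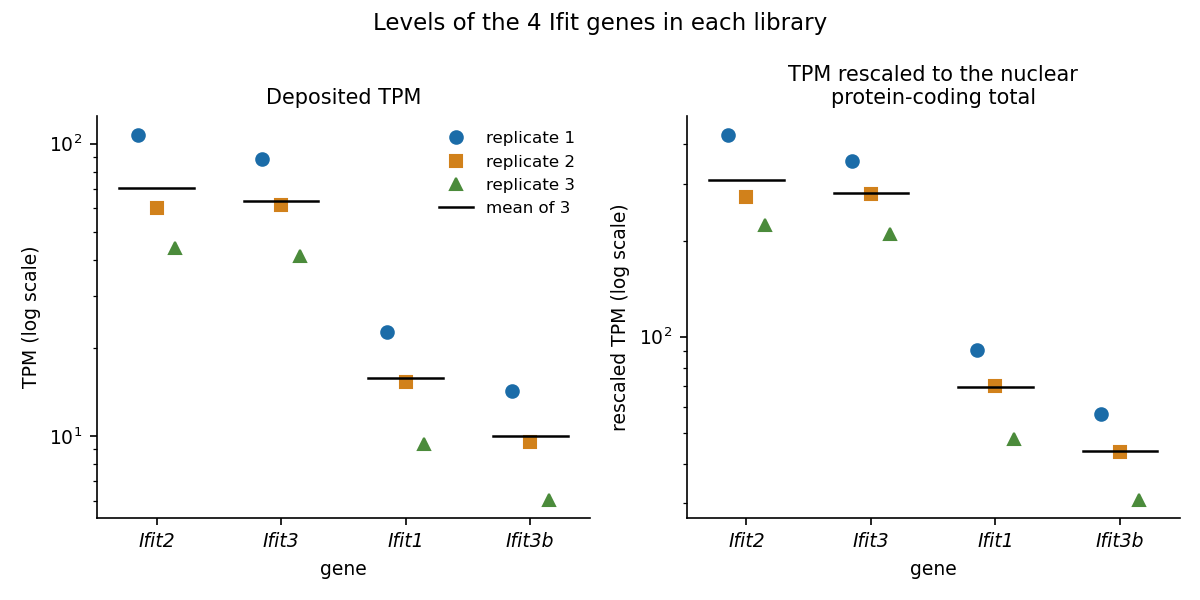
TPM (left) and TPM rescaled to the nuclear protein-coding total (right) of the 4 Ifit genes, both on log axes. Points are libraries and bars are means of 3. In each gene replicate 1 is highest and replicate 3 lowest, and Ifit2 and Ifit3 lie above Ifit1 and Ifit3b in every library.

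Of 9730 genes whose mean TPM was 1 or more, Ifit2 ranked 540 and Ifit3 595, above 94.5% and 93.9% of the genes. Ifit1 ranked 2342 and Ifit3b 3560, above 75.9% and 63.4%. Together the family took 233, 147 and 101 TPM in replicates 1, 2 and 3, and 0.0932%, 0.0669% and 0.0512% of the nuclear protein-coding TPM.

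The proportions within the family moved little while its summed deposited TPM differed by over 2 times between libraries. Rescaled, the sum was 932, 669 and 512 in replicates 1, 2 and 3, so it differed by less. Ifit2 made up 43.6% ± 2.52 (SD, n = 3) of the family TPM and Ifit3 40.3% ± 2.07. Ifit1 made up 9.85% ± 0.548 and Ifit3b 6.22% ± 0.242. By expected counts, which are not per length, Ifit2 took 61.8%, Ifit3 24.3%, Ifit1 9.48% and Ifit3b 4.38%.

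**Figure D2:**
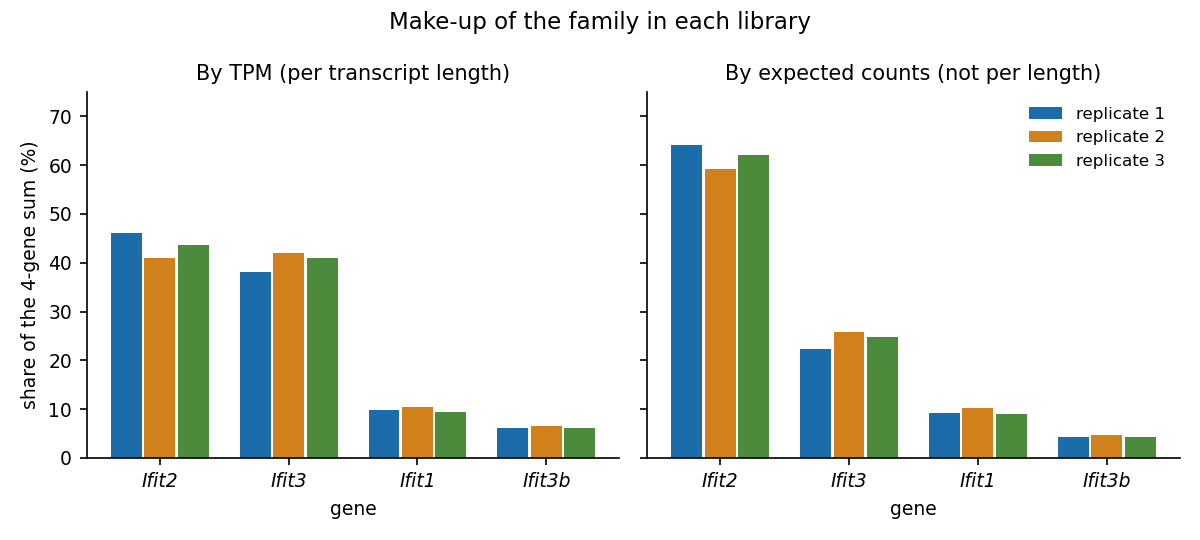
Share of each gene in the 4-gene sum, in percent, per library, by TPM (left) and by expected counts (right). The bars of a gene are close together across libraries. Ifit2 and Ifit3 are near each other by TPM and far apart by counts.

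Ratios between neighbours in level show which steps exceed the spread. Ifit2 over Ifit3 was 1.21, 0.977 and 1.07 in replicates 1, 2 and 3, a mean log2 ratio of 0.11 ± 0.16 (SD, n = 3). Ifit2 was the higher in 2 of 3 libraries, so these neighbours did not differ beyond their spread. Ifit3 over Ifit1 was 3.90, 4.03 and 4.38, a mean log2 ratio of 2.03 ± 0.09. Ifit1 over Ifit3b was 1.59, 1.61 and 1.55, a mean log2 ratio of 0.66 ± 0.03. Both steps had the same direction in 3 of 3 libraries and were many times their SD. With 3 libraries an exact two-sided sign-flip test cannot give a p below 0.25, so no test was made. The near-identical copies Ifit3 and Ifit3b differed by 6.19, 6.47 and 6.79 times. The authors' second transcript table gave 6.30, 6.47 and 6.74 from the same libraries.

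A single transcript carried nearly all of the Ifit2 signal. Ifit2-201, which codes for the full protein, held 99.9%, 99.7% and 99.7% of Ifit2 TPM in replicates 1, 2 and 3, or 99.8% ± 0.119 (SD, n = 3). Ifit2-202 has 131 annotated coding bases and measured 0.0900, 0.190 and 0.110 TPM. It had 2.12, 14.9 and 4.28 expected counts, so its level is near the limit of the depth. Ifit1, Ifit3 and Ifit3b have 1 annotated transcript each.

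The Ifit1-like genes between the members were much lower. Ifit1bl1 measured 3.82, 1.51 and 0.760 TPM from 380, 495 and 119 counts. It had the same order of libraries as the members, and its rescaled TPM + 1 was 3.35 times higher in replicate 1 than in replicate 3. Ifit1bl2 measured 0.0300, 0.0600 and 0.0400 TPM from 4.01, 32.1 and 9.02 expected counts. Replicate 2 was its highest library, unlike in the members, though these counts are few.

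Ifit1 and Ifit1bl2, whose starts are 128 bases apart, thus differed widely in level. Per effective base, counts of Ifit1 were 898, 249 and 258 times those of Ifit1bl2. The 95% Poisson intervals of the Ifit1bl2 count put the ratio between 352 and 3305 in replicate 1, 177 and 365 in replicate 2, and 136 and 566 in replicate 3. These intervals do not cover how reads are assigned to genes. The authors' second transcript table gave Ifit1bl2 9.04, 45.5 and 14.4 counts and Ifit1 3084, 6305 and 1885, so the ratios are lower there. Their coding sequences were 77.0% identical, and 240 of the 2626 words of 31 bases in Ifit1 also occur in Ifit1bl2.

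Beyond the cluster, Lipa, a lysosomal lipase gene on its left, measured 252 ± 39.9 TPM (SD, n = 3). Slc16a12, a transporter gene on its right, measured 0.0133 TPM and Ch25h, the cholesterol 25-hydroxylase gene beyond Lipa, 0.0467 TPM. The pseudogenes AC102249.1 and AC016791.2, the other annotated genes within or beside the cluster, were listed at 0. Of 8 listed neighbours on the chromosome, 4 reached 1 TPM in all libraries. None of these 4 differed by 1.5 times between libraries in rescaled TPM + 1, which 8.01% of 9730 genes did. Their median was 1.42 times, beside 1.14 over those genes. Replicate 1 was highest and replicate 3 lowest in 2 of 4, against 16.6% of genes.

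**Figure D3:**
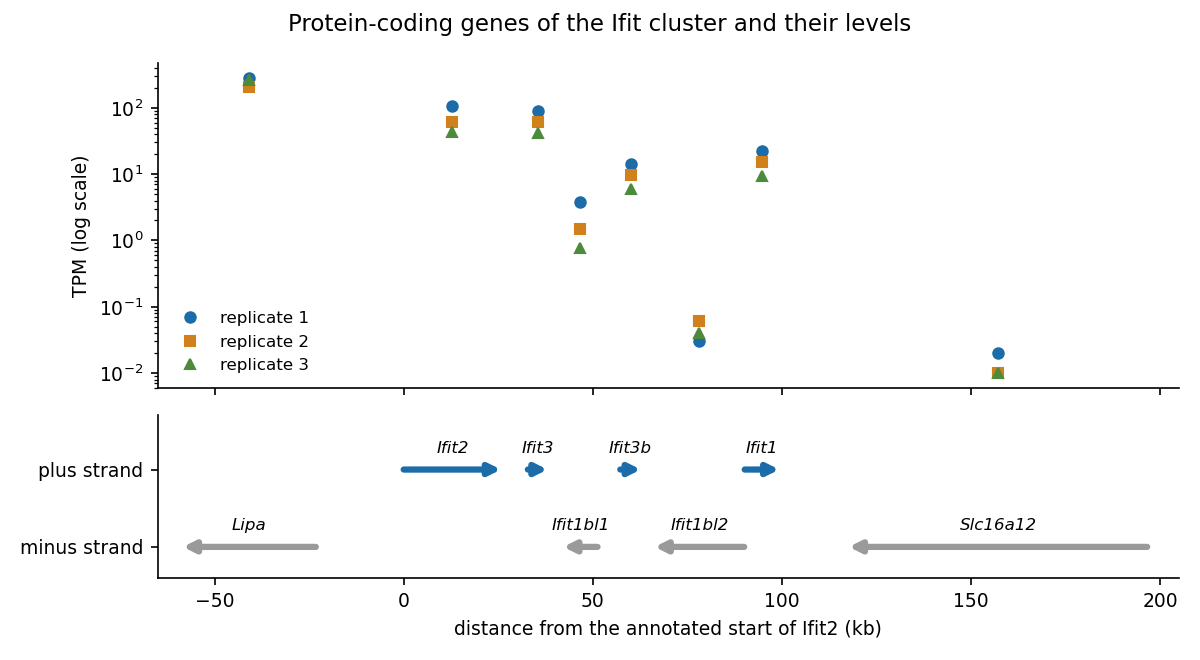
Protein-coding genes of the Ifit cluster by distance from the annotated start of Ifit2 in kb (bottom, arrows point along transcription, members in blue) and their TPM per library on a log axis (top). The 4 members lie between 6.06 and 107 TPM, Ifit1bl1 between 0.760 and 3.82, and Ifit1bl2 at or below 0.0600.

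The family varied between libraries more than most genes. On log2(rescaled TPM + 1), the highest library exceeded the lowest 1.92 times for Ifit2, 1.88 for Ifit1, 1.83 for Ifit3b and 1.69 for Ifit3. The median over all 9730 genes was 1.14, and between 94.9% and 96.4% of them varied less than each member. None of the 4 reached 2 times, which 3.16% of these genes did, and 4 of 4 reached 1.5 times, which 8.01% did. The fold of 1.5 was chosen after the values were seen. On deposited TPM 4 of 4 passed 2 times beside 2.81% of genes, and 4 of 4 passed 1.5 times beside 9.99%. On CPM scaled by TMM, a trimmed-mean normalisation, 4 of 4 passed 1.5 times beside 5.20%.

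The order of libraries was also shared. Replicate 1 was highest and replicate 3 lowest on rescaled TPM for 4 of 4, against 16.6% of all genes tested. On deposited TPM the same order held for 64.1% of genes, so there it says little about the members. On TMM-scaled CPM it held for 4 of 4 members and 20.0% of genes. Both the order and the fold of 1.5 were met by 4 of 4 members and 1.80% of genes. Members are not independent replicates of this pattern, since all were read from the same 3 libraries.

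Most of the members' difference was in the step to replicate 1 for Ifit2 and was spread over both steps for the others. Replicate 1 over replicate 2 was 1.56 times for Ifit2, and 1.31 for Ifit3b, 1.30 for Ifit1 and 1.26 for Ifit3. Replicate 2 over replicate 3 was 1.23 for Ifit2, and 1.45 for Ifit1, 1.39 for Ifit3b and 1.34 for Ifit3. Over all genes these medians were 0.997 and 0.993. Without replicate 1 no member reached 1.5 times, and without replicate 3 only Ifit2 did.

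**Figure D4:**
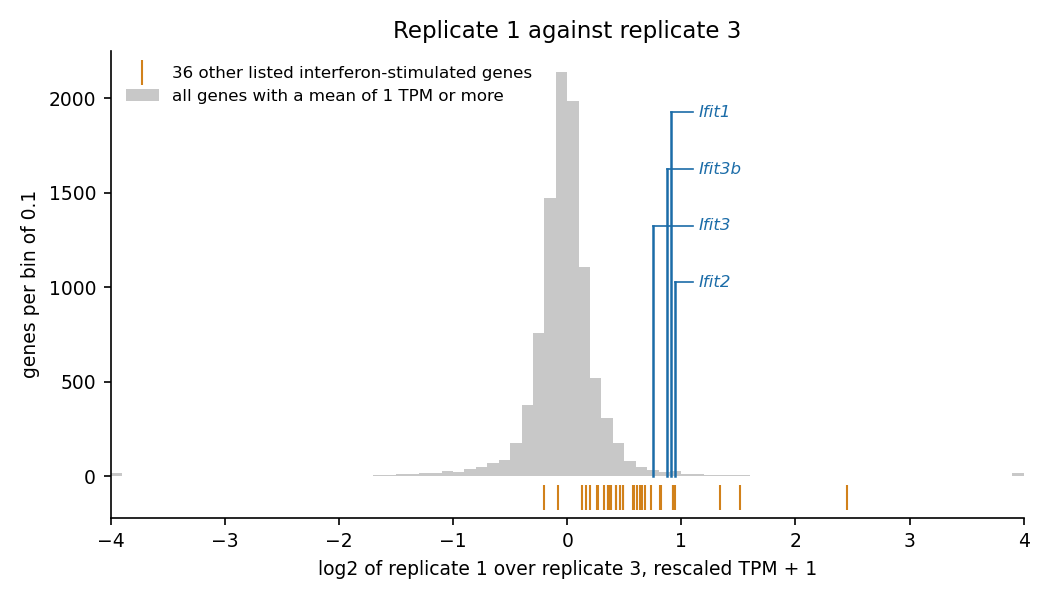
Number of genes per bin of 0.1 in log2 of replicate 1 over replicate 3 on rescaled TPM + 1, for 9730 genes (grey, values beyond the axis in the end bins). Lines mark the 4 Ifit genes between 0.76 and 0.94, and ticks mark the 36 other interferon-stimulated genes, of which 34 lie above 0, as do 45.3% of all genes.

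The libraries also differed in composition, only partly in the members' order. The nuclear protein-coding share of TPM fell from 24.98% in replicate 1 to 19.6% in replicate 3. The nuclear RNAs Malat1 and Neat1 summed to 1566, 1235 and 4311 rescaled TPM, highest in replicate 3. The summed rescaled level of the 8 macrophage markers was 27876, 23691 and 24672, that of the 5 markers of plasmacytoid dendritic cells 683, 563 and 472, that of the 3 monocyte markers 23.99, 29.8 and 23.3, and that of the 4 neutrophil markers 68.0, 114 and 120. Of these sums, only the plasmacytoid list fell from replicate 1 through 2 to 3. Bst2, which is also an interferon-stimulated gene, made up most of the plasmacytoid list, at 619, 498 and 413. None of the other members of that list had that order. Tcf4 was at 62.5, 63.2 and 57.3, and Siglech, Ccr9 and Pacsin1 were below 1 TPM. The part of these shifts in the spread of the Ifit genes was not tested.

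edgeR's tagwise dispersion gave a coefficient of variation of 0.227 for Ifit2, 0.208 for Ifit1, 0.2005 for Ifit3b and 0.181 for Ifit3. This estimates the spread of counts beyond counting error, and draws on other genes as well as the gene itself. The median over 12430 genes was 0.104, and between 76.9% and 86.2% of genes were less variable than each member. That share was 57.1% to 63.2% without replicate 1 and 53.4% to 68.2% without replicate 3. With no filter on low counts it was 41.7% to 44.7%, and the median gene then varied more than each member. DESeq2's dispersion gave 0.361, 0.321, 0.189 and 0.161 in the same order of genes, so the value of a gene depends on the tool.

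Other interferon-stimulated genes varied in the same direction, mostly by less. All 36 listed were at 1 TPM or more in every library, with a median of 17.3 TPM. Replicate 1 was highest and replicate 3 lowest in 33 of 36 on rescaled TPM, and 15 reached 1.5 times, with a median of 1.40. The 3 past 2 times were Cxcl10 at 5.46, Ifi44 at 2.85 and Gbp2 at 2.53. Cxcl10, a chemokine gene, measured 33.1, 8.26 and 4.61 TPM, a steeper fall than in any Ifit member.

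Ranked by TPM among these 40 genes, Ifit2 stood at place 5, 7 and 6 and Ifit3 at 6, 6 and 9 in replicates 1, 2 and 3. Ifit1 stood at 22, 23 and 23, and Ifit3b at 27, 27 and 29. Above the family by mean were Ifitm3, which hinders virus entry, at 275 TPM, the tethering factor Bst2 at 115, Ifi27l2a at 110 and the nucleotide hydrolase Samhd1 at 99.6. Rsad2, the antiviral enzyme viperin, averaged 53.5 TPM, below Ifit3.

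**Figure D5:**
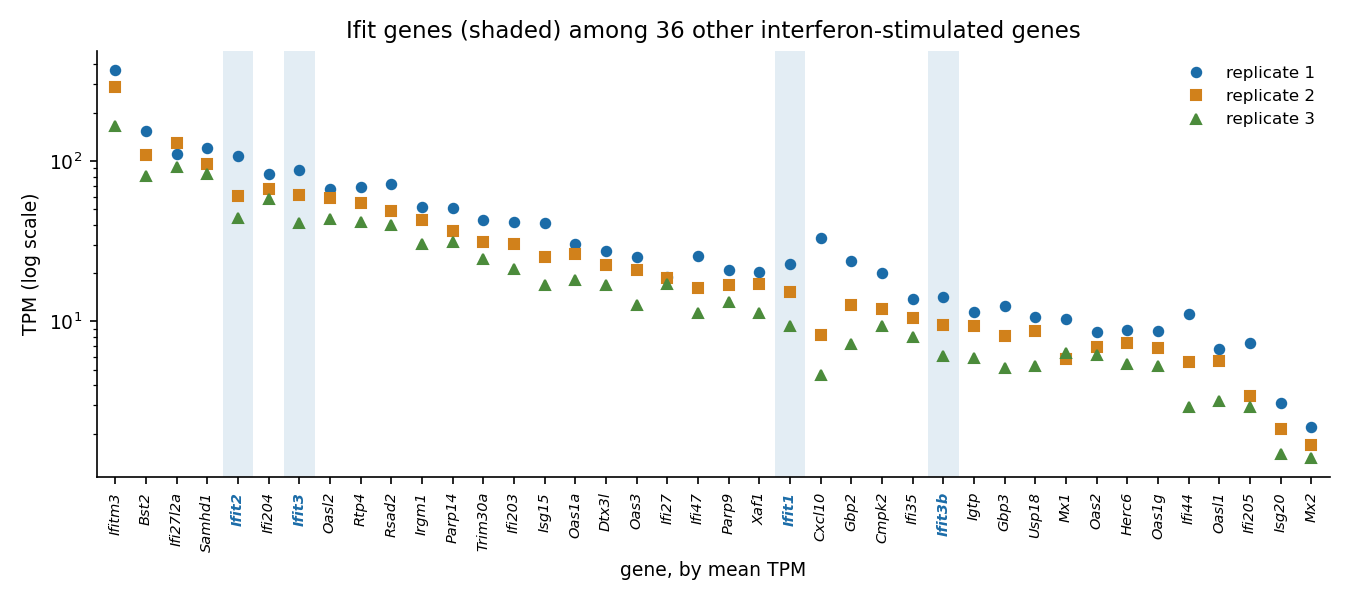
TPM per library on a log axis of the 4 Ifit genes (shaded) and 36 other interferon-stimulated genes, by mean TPM. Ifit2 and Ifit3 lie near the upper end and Ifit1 and Ifit3b in the middle, and replicate 1 is the highest library for most genes.

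Transcripts of interferons were at or below the limit of the depth. None of 21 listed interferon genes reached 1 TPM, and 18 had no counts in any library: every listed Ifna gene, Ifnab, Ifne, Ifng, Ifnl2 and Ifnl3. Ifnb1, the first interferon that stimulated macrophages make, had 3, 1 and 3 counts. Ifnk had 1, 0 and 1 and Ifnz 1, 2 and 1 counts. These values are at or under the limit that a count of 0 allows, so no order of libraries can be read from them.

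The machinery that reads interferon was present and varied less than the members. All 7 genes of the receptor and its factor complex were at 1 TPM or more, with Ifnar2 at 45.4 ± 4.71 TPM and Jak1 at 31.6 ± 4.46 (SD, n = 3). Replicate 1 was highest and replicate 3 lowest in 4 of 7, and none reached 1.5 times.

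Another list of 10 genes held the arm from the adaptor Ticam1 to Irf3 together with other interferon regulatory factors. All were at 1 TPM or more and 5 had the members' order. Irf8 led with 52.3 ± 6.45 TPM (SD, n = 3), before Irf7 with 47.3 ± 15.7 and Irf5 with 35.2 ± 4.42. The 2 past 1.5 times were Irf1 at 2.47 and Irf7 at 1.59. Irf1 measured 54.5, 20.0 and 17.2 TPM, with replicate 1 standing apart. Irf3, the factor that can act on Ifit genes without interferon, averaged 8.57 ± 0.611 TPM and differed by 1.22 times.

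The listed RNA sensors, with the adaptor Mavs among them, followed the order of the members but mostly with smaller differences. All 8 were at 1 TPM or more and 8 of 8 had the members' order, yet only Zbp1 reached 1.5 times, at 1.82. Tlr7 led with 53.9 ± 12.9 TPM (SD, n = 3), before Zbp1 with 24.8 ± 9.88 and Ddx58 (RIG-I) with 20.1 ± 6.19.

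The listed genes of cap formation and translation initiation varied little between libraries. All 11 were at 1 TPM or more. The members' order held for 1 of 11 and none reached 1.5 times, beside 16.6% and 8.01% of all genes tested. With 11 genes, counts this low say little. The median was 1.08, beside 1.14 over all genes. The initiation factors Eif4a1, Eif3a and Eif4g1 were highest, at 155 ± 20.8, 41.9 ± 4.27 and 36.8 ± 3.34 TPM (SD, n = 3). Cmtr1, which adds the cap methyl mark whose absence Ifit1 recognises, measured 11.4, 8.65 and 8.53 TPM.

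The genes nearest in profile were found over 3 libraries by the root mean square difference from the members' mean, on log2(rescaled TPM + 1) centred per gene. Of 9161 protein-coding genes ranked, the nearest 10 were Gbp3, Isg15, Ifi47, Gm14295, Rpl9-ps6, Ppcdc, Cited2, Ramp1, Ly6e and Gbp6, at 0.030 to 0.059 log2 units. The median gene was at 0.37. The members themselves were at 0.022 to 0.086, with Ifit2 farther from their mean than any of these 10. Gbp3, Isg15 and Ifi47 are on the interferon-stimulated list, which does not hold every such gene. Gbp3 measured 12.5, 8.15 and 5.09 TPM and Isg15, a ubiquitin-like modifier, 40.8, 25.1 and 16.8 TPM. Of 35 list members ranked, 11 were within the nearest 100 and 26 within the nearest 500. With 3 values a profile has few shapes, so closeness here is a description of these libraries.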

How the data were processed

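Ribo-depleted RNA of 3 libraries in 1 group was sequenced. Per the file headers and labels, values are on mm10 with GENCODE M21. Strandedness, aligner and quantifier: not given in the sources used here. Expected counts, TPM and FPKM per gene and transcript, and the percent of each gene in a transcript, were deposited by the authors. A second deposited transcript table was summed to genes as an alternative.

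TPM was rescaled to the nuclear protein-coding total of each library. Folds used log2(value + 1) for genes whose mean TPM was 1 or more. Expected counts were rounded for edgeR 4.0.16 (TMM, filterByExpr with a minimum count of 10, intercept only) and DESeq2 1.42.0. The edgeR estimate was checked on simulated data, and the DESeq2 estimate was not. No pair of libraries was identical. The coding sequences came from M21 transcripts and were aligned with Biopython 1.88.

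The members, the 9 gene lists and the 8 marker lists were chosen with earlier results of these data known. Named were the members, the other Ifit genes, annotated neighbours, the 3 highest genes of each list, genes without counts and the 10 nearest profiles. Other named genes were chosen after their values were seen. Some genes that the rule names are not reported here. With 1 group, no test between groups was made.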

Additional observations from a re-analysis of the deposited data

How the results depend on the processing

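The order of the libraries, replicate 1 highest and replicate 3 lowest, held for 4 of 4 members on every scale and table tried. The count past 2 times depended on the scale: 0 on rescaled TPM and on TMM-scaled CPM, 4 on deposited TPM and 1 with DESeq2 size factors. Leaving out a library, the count past 1.5 times ranged from 0 (without replicate 1) to 4 (without replicate 2), and was 1 without replicate 3. The median log2 spread of the members, 0.89, ranged from 0.38 without replicate 3 to 0.89 without replicate 2. The members' median coefficient of variation, 0.204, ranged from 0.109 without replicate 3 to 0.214 without replicate 2. By counts rather than TPM, Ifit2, Ifit3 and Ifit3b took 61.8%, 24.3% and 4.38% of the family, since counts are not per length. The Ifit2-201 share was 99.5% in the second transcript table. Of the 10 nearest profiles 5 were shared with deposited TPM and 4 with the second table rescaled; the cause was not tested. With no filter on low counts the median coefficient of variation over genes was 0.291, above all 4 members. The fold of 1.5, the order of libraries and the member ratios in other tables were chosen after seeing the data. Depth limits the values of Ifit2-202, Ifit1bl2 and the interferon genes. No paired analysis was possible because there is 1 group.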
